A study of Saccharomyces cerevisiae with 18 samples.

Results

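*IRC7* (YFR055W), YHR112C, YLL058W and YML082W are 4 yeast genes whose products belong to the cystathionine lyase/synthase-like enzymes, and their transcripts were followed in wt, *snf2Δ* and *snf5Δ* cells with and without added cysteine. The 4 genes were chosen by product family from a table of 7127 gene identifiers, with no threshold on their counts, although counts of these libraries, among them the response of *IRC7* to cysteine in wt, were known when they were picked. All 4 passed a filter on low counts that left 5757 genes for testing. Adjusted p values below come from edgeR's quasi-likelihood test over those 5757 genes. They set the size of a difference beside the spread of replicates, and are no independent evidence for genes chosen in this way.

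Enzymes of this family hold a pyridoxal phosphate cofactor and cut or join carbon-sulfur bonds. In yeast, Cys3 cuts cystathionine to cysteine, Str2 and Str3 work in the opposite direction from cysteine towards homocysteine, and Met17 joins sulfide to O-acetylhomocysteine to give homocysteine. Irc7 is a cysteine desulfhydrase and β-lyase, which frees sulfide from cysteine and thiols from cysteine conjugates, and the S288C lineage carries a shortened allele of low activity. YLL058W, named *HSU1* in RefSeq, encodes a homocysteine synthase that lets cells without Met17 use sulfide. YML082W is the duplicate of *STR2* from the genome duplication of the yeast lineage, and YHR112C is a putative member with no assigned reaction. Most sulfur genes are activated by Met4, which has no DNA binding of its own and is carried to promoters by Cbf1 and by Met31 or Met32, and cysteine is the metabolite through which Met4 is held inactive.

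There were 6 groups of 3 libraries each, *snf2Δ*, *snf5Δ* and wt cells given 3 mM cysteine in YPD for 30 min (YPD+Cys) and the same strains in YPD alone. All were BY4741 (*MATa*), a strain that carries *his3Δ1* and lacks *LEU2*, *URA3* and *MET17*, so that every group was without the Met17 route. *SNF2* encodes the ATPase of the Swi-Snf chromatin remodeler and *SNF5* another subunit, and each mutant was 1 strain of the genome deletion collection with KanMX4 in place of the gene. Cells were in log phase at 30°C, and nothing in the sources says whether replicates were separate cultures, so p values measure the spread between these libraries. Libraries held 1329986 to 4845830 counts in genes, and the members had between 38 and 416 counts each. *SNF2* had 1.23 to 5.22 CPM in the *snf2Δ* libraries and 187 to 253 CPM in wt, *SNF5* had at most 0.274 CPM in *snf5Δ* and 45.5 to 57.7 CPM in wt, and no library had a count for *MET17*, *LEU2* or *URA3*. The *MATa* gene *STE2* was read in all groups, at 136 to 230 CPM in the mutants and 621 to 725 CPM in wt. In 3 libraries, *snf2Δ* YPD replicates 2 and 3 and *snf5Δ* YPD replicate 3, 44.6% to 71.4% of the reads were multi-mapping (placed at several loci), against 3.02% to 28.6% in the other 15. Results in YPD are therefore also given without them. That leaves *snf2Δ* in YPD with 1 library, which the fit takes to vary like the other groups, so its values are then given with no test. CPM here are counts relative to library size after TMM scaling, which sets libraries level on the bulk of genes, so that fewer cells and less RNA per cell cannot be told apart. The comparisons of the mutants with wt in a medium share their wt libraries.

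The promoters of *IRC7* and YHR112C are shown because these genes had the largest changes of the 4, in opposite directions. Each window holds the 250 bases before the start codon and the first 50 of the coding sequence, read 5′ to 3′ on the strand of the gene from the R64 assembly (sacCer3). Capitals mark AAACTGTG, the core that Met31 and Met32 recognise, which was searched for on both strands after the windows had been seen.
IRC7, chromosome VI, 263954 to 264253, plus strand: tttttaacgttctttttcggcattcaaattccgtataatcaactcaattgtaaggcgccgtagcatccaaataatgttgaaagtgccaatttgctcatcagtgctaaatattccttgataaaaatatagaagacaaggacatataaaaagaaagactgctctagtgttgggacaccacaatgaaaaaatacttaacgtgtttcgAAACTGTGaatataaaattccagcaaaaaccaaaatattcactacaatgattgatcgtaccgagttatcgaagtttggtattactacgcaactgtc
YHR112C, chromosome VIII, 335614 to 335913, minus strand: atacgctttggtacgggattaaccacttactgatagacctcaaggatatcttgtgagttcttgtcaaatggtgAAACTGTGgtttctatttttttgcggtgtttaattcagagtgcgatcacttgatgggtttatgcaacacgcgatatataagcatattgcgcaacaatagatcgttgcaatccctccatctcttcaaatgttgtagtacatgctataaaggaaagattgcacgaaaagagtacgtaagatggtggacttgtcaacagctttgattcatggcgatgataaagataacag

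The word AAACTGTG began 46 bases before the start codon of *IRC7* and 177 bases before that of YHR112C, and was not in the windows of YLL058W or YML082W. It was in 1.58% of the 6001 promoter windows of nuclear protein-coding genes. In the other 4 family genes it was found in the window of *MET17* alone. The Cbf1 motif CACGTG and the word TGTGGC, another form of the Met31/Met32 core, were in none of the 4 member windows. They were in 2.92% and 7.82% of all windows, and in 50% and 40% of the windows of 10 sulfate assimilation genes. AAACTGTG was in 10% of those 10 windows. *CYS3* had CACGTG as well as TGTGGC in its window, and *STR3* had TGTGGC on both strands. A word in a window is a match of letters and does not show that the factor binds there.

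The 4 genes lie on 4 chromosomes, and each coding sequence is in 1 part with no annotated overlap. *IRC7* spans 264204 to 265226 on chromosome VI, 4.93 kb from the chromosome end, and YHR112C spans 334527 to 335663 on chromosome VIII. YLL058W (chromosome XII, 23569 to 25296) lies 23.6 kb from a chromosome end and YML082W (chromosome XIII, 101862 to 103811) 102 kb. The proteins fall into 2 kinds by length. Irc7 (340 residues) and the YHR112C product (378) are short and, like Cys3, Str3 and Met17, hold the signature around the lysine that binds pyridoxal phosphate, at residue 208 in Irc7 and 198 in YHR112C. Those of YLL058W (575) and YML082W (649) are long, as is Str2 (639), and the signature was not found in these 3. YML082W was 58.9% identical to Str2 over the aligned residues and 48.2% identical to YLL058W, and YLL058W was 46.8% identical to Str2. Irc7 was 27.7% to 32.1% identical to the other 7, and YHR112C was nearest to Cys3 (33.7%) and Met17 (33.4%). How the counting treated near copies was not tested.

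*IRC7* was lower in both mutants, in either medium. In YPD it had 28.6, 27.0 and 21.7 CPM in *snf2Δ* (25.8 ± 3.60, SD, n = 3) and 21.8, 16.0 and 24.3 CPM in *snf5Δ* (20.7 ± 4.25, SD, n = 3), against 135, 103 and 119 CPM in wt (119 ± 16.1, SD, n = 3). The lowest wt library was above all 6 mutant libraries. The fall was 4.59-fold in *snf2Δ*, a log2 change of -2.20 (SE 0.19, edgeR adjusted p = 4.45e-07), and 5.88-fold in *snf5Δ*, a log2 change of -2.56 (SE 0.19, adjusted p = 9.16e-08). The mutants themselves did not differ beyond their spread, with a log2 difference of -0.36 for *snf5Δ* over *snf2Δ* (SE 0.20, adjusted p = 0.45). Without the 3 libraries rich in multi-mapping reads the log2 change was -2.03 in *snf2Δ*, from 1 YPD library, and -2.62 in *snf5Δ* (edgeR adjusted p = 1.86e-06).

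After cysteine the same order held for *IRC7* with a smaller gap. YPD+Cys libraries had 19.0, 16.7 and 17.6 CPM in *snf2Δ* and 11.2, 13.1 and 17.8 CPM in *snf5Δ*, against 46.0, 45.4 and 33.3 CPM in wt, and the ranges of mutant and wt did not overlap. *IRC7* was 2.33-fold lower in *snf2Δ*, a log2 change of -1.22 (SE 0.19, edgeR adjusted p = 0.000234). In *snf5Δ* it was 2.96-fold lower, a log2 change of -1.57 (SE 0.19, edgeR adjusted p = 2.25e-05). Between the mutants the log2 difference was -0.34 (SE 0.20, adjusted p = 0.509). On log2(TPM + 1) the *IRC7* changes over wt were smaller, -0.70 in *snf2Δ* and -0.72 in *snf5Δ*, and were still called by limma, while all genes had a median change of 0.46 and 0.73 on that scale.

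**Figure D1:**
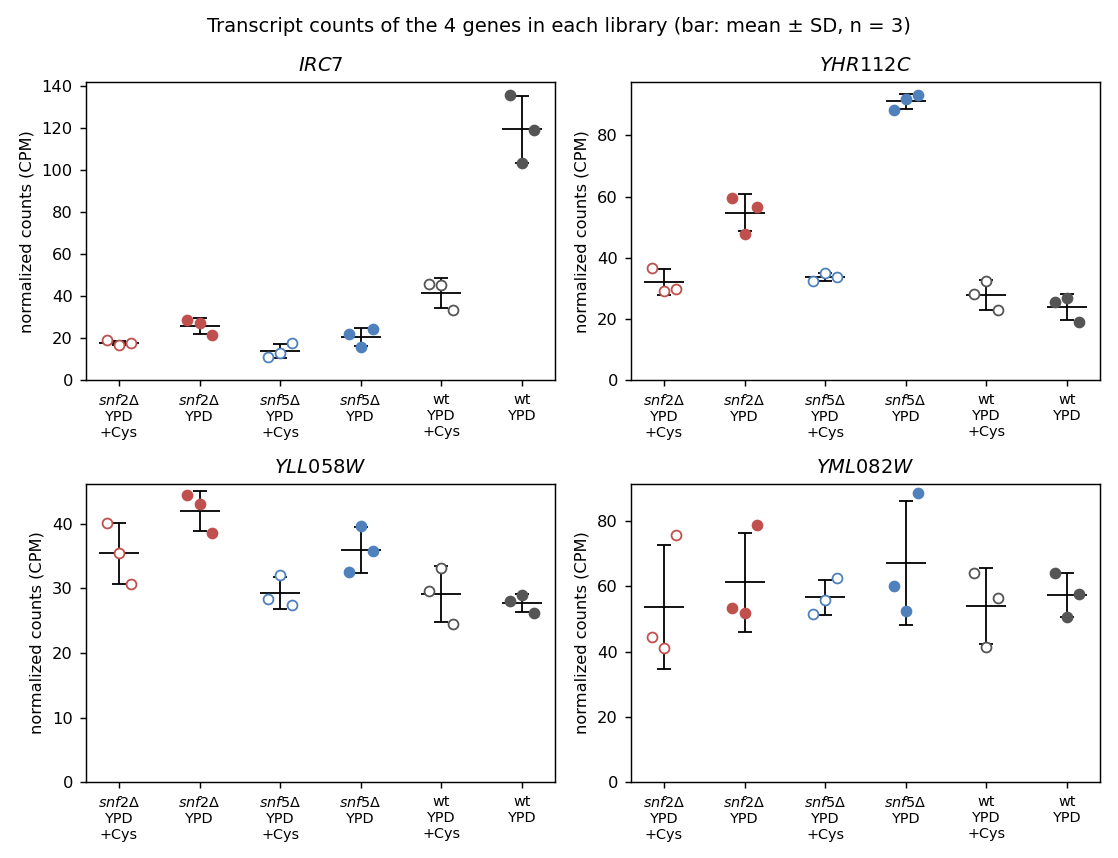
Normalized counts (CPM) of *IRC7*, YHR112C, YLL058W and YML082W in each of the 18 libraries, by strain and medium. Points are libraries (open, YPD+Cys; filled, YPD) and bars the mean ± SD of 3. *IRC7* is highest in wt YPD at 103 to 135 CPM, YHR112C is highest in *snf5Δ* YPD at 88.4 to 93.2 CPM, and the groups overlap for YML082W.

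Cysteine lowered *IRC7* in wt, which is the change known when the gene was chosen and is given here with no test. The log2 change of YPD+Cys over YPD in wt was -1.52 (SE 0.18), and the ratio within libraries of the same number was 0.34, 0.44 and 0.28. The *snf2Δ* ratios were 0.663, 0.619 and 0.81, and the *snf5Δ* ratios 0.515, 0.819 and 0.735. All 6 lay above the 3 wt ratios and below 1. Within *snf2Δ* the log2 change was -0.54 (SE 0.20, edgeR adjusted p = 0.744), and within *snf5Δ* -0.53 (SE 0.21, adjusted p = 0.848), neither past the threshold. A block for replicate number within strain, which pairs YPD+Cys and YPD libraries, gave -0.53 (SE 0.16, edgeR adjusted p = 0.0608) and -0.55 (SE 0.18, adjusted p = 0.116). Libraries of the 2 media did not overlap in *snf2Δ* and overlapped in *snf5Δ*.

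The response of *IRC7* to cysteine in a mutant minus that in wt was 0.98 on the log2 scale for *snf2Δ* (SE 0.26) and 0.99 for *snf5Δ* (SE 0.27). With the replicate block within strain the same differences were 0.99 (SE 0.20) and 0.96 (SE 0.21). They subtract the wt change for which *IRC7* was known, so they are a description with no test and no separate evidence.

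YHR112C went the other way in YPD. It had 59.6, 47.9 and 56.6 CPM in *snf2Δ* (54.7 ± 6.06, SD, n = 3) and 88.4, 91.8 and 93.2 CPM in *snf5Δ* (91.1 ± 2.47, SD, n = 3), against 25.7, 27.0 and 19.2 CPM in wt (24.0 ± 4.19, SD, n = 3). The 3 groups did not overlap, with *snf5Δ* highest and wt lowest. YHR112C rose 2.28-fold in *snf2Δ* (log2 change 1.19, SE 0.15, edgeR adjusted p = 4.86e-05) and 3.77-fold in *snf5Δ* (log2 change 1.92, SE 0.15, adjusted p = 1.88e-07). It was 1.66-fold higher in *snf5Δ* than in *snf2Δ* (log2 difference 0.73, SE 0.15, adjusted p = 0.0102). Without the 3 libraries rich in multi-mapping reads, the log2 change over wt was 1.94 in *snf5Δ* (edgeR adjusted p = 3.23e-06), and with *snf2Δ* at 1 library it was 1.33 there and the difference between the mutants 0.61. Leaving out *snf2Δ* YPD replicate 2 alone ended the call between the mutants (log2 difference 0.65, adjusted p = 0.0647 by edgeR).

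After cysteine the YHR112C levels of the strains overlapped. YPD+Cys libraries had 36.8, 29.2 and 29.9 CPM in *snf2Δ*, 32.3, 35.0 and 33.7 CPM in *snf5Δ* and 28.1, 32.5 and 22.9 CPM in wt. Over wt the log2 change was 0.20 in *snf2Δ* (SE 0.15, edgeR adjusted p = 0.392) and 0.28 in *snf5Δ* (SE 0.15, adjusted p = 0.217), and the log2 difference between the mutants was 0.07 (SE 0.15, adjusted p = 0.857). These p values do not show that the strains were alike. On library totals and on TPM the gap of *snf5Δ* to wt was called, at log2 changes of 0.52 (edgeR adjusted p = 0.0404) and 1.05 (limma adjusted p = 0.00376), scales on which the median of all genes was itself 0.23 and 0.73 higher in *snf5Δ*.

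Within strains, YHR112C fell with cysteine in *snf5Δ* (log2 change -1.43, SE 0.15, edgeR adjusted p = 1.28e-05) and in *snf2Δ* (log2 change -0.78, SE 0.15, adjusted p = 0.0133), to 0.37 and 0.583 of the YPD level. The ratios of YPD+Cys to YPD for the same number were 0.366, 0.381 and 0.362 in *snf5Δ*, 0.618, 0.61 and 0.528 in *snf2Δ* and 1.09, 1.2 and 1.19 in wt. The 3 strains did not overlap. In wt the log2 change was 0.21 (SE 0.16, adjusted p = 0.999 by edgeR). The *snf2Δ* call was lost without any 1 of *snf2Δ* YPD replicates 1 and 3 or YPD+Cys replicates 2 and 3 (log2 change -0.76 to -0.71, edgeR adjusted p from 0.0608 to 0.103). It was kept with the replicate block within strain (-0.77, SE 0.10, edgeR adjusted p = 2.11e-05), and without the 3 libraries rich in multi-mapping reads, at 1 *snf2Δ* YPD library, the log2 change was -0.89. On log2(TPM + 1) with limma neither call held. There the log2 change was -1.07 in *snf5Δ* (limma adjusted p = 0.0829) and -0.43 in *snf2Δ* (limma adjusted p = 0.874).

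The response of YHR112C to cysteine differed between *snf5Δ* and wt, by -1.64 on the log2 scale (SE 0.22, edgeR adjusted p = 0.000629). For *snf2Δ* minus wt it was -0.98 (SE 0.22, adjusted p = 0.195), and -0.99 with the replicate block within strain (SE 0.15, adjusted p = 0.0011), where it was called. On log2(TPM + 1) the *snf5Δ* difference was -1.17 and missed the threshold (adjusted p = 0.832 by limma).

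**Figure D2:**
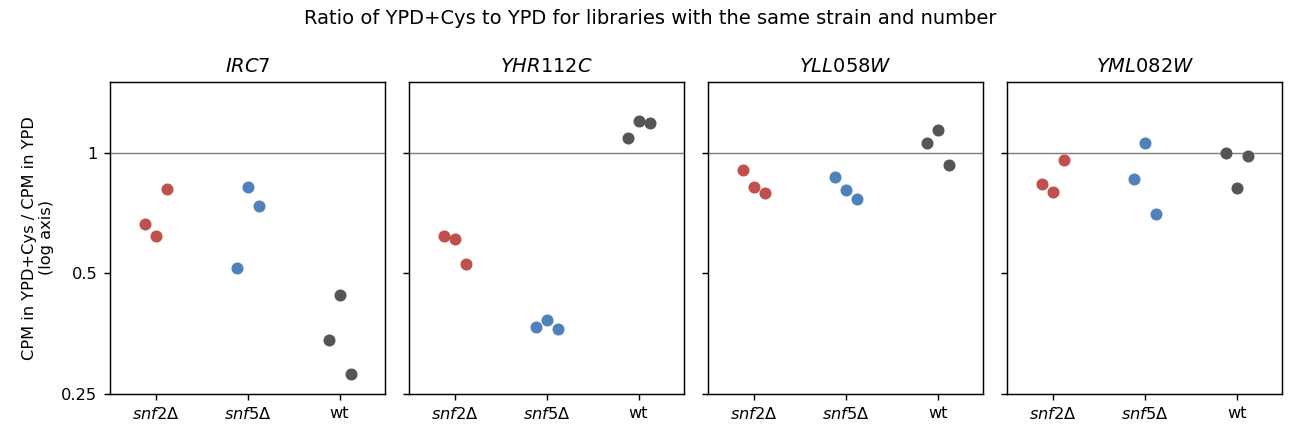
Ratio of CPM in YPD+Cys to CPM in YPD (log axis) for libraries of the same strain and replicate number, for the 4 genes. Each point is 1 pair. *IRC7* has its lowest ratios in wt (0.28 to 0.44), YHR112C in *snf5Δ* (0.362 to 0.381), and the YHR112C ratios in wt are above 1.

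YLL058W changed less. In YPD it had 44.4, 43.2 and 38.6 CPM in *snf2Δ* and 32.6, 39.7 and 35.7 CPM in *snf5Δ*, against 28.0, 29.0 and 26.2 CPM in wt. All mutant libraries were above all wt libraries. The rise in *snf2Δ* was 1.52-fold (log2 change 0.60, SE 0.14, edgeR adjusted p = 0.0065), and the log2 change was 0.70 without the libraries rich in multi-mapping reads, at 1 *snf2Δ* YPD library. For *snf5Δ* the log2 change was 0.38 (SE 0.14, adjusted p = 0.061 by edgeR), just outside the threshold, and without the libraries rich in multi-mapping reads it was 0.42 (adjusted p = 0.0896). It was called on library totals (0.73) and on TPM (0.79 on log2(TPM + 1)), where the median of all genes was 0.34 and 0.44. The same call came with RSEM's expected counts, at least 10 counts in every library, or the replicate block (0.37, adjusted p = 0.0292 by edgeR). It also came without any 1 of wt YPD+Cys replicate 3, *snf2Δ* YPD+Cys replicate 1 or *snf5Δ* YPD+Cys replicate 2. Over all fits without 1 library, the log2 change ran from 0.29 to 0.46 and the edgeR adjusted p from 0.04 to 0.233.

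In YPD+Cys, YLL058W had 40.1, 35.5 and 30.6 CPM in *snf2Δ* and 28.4, 32.1 and 27.4 CPM in *snf5Δ*, against 29.7, 33.1 and 24.5 CPM in wt. The groups overlapped. Over wt the log2 change was 0.28 in *snf2Δ* (SE 0.14, edgeR adjusted p = 0.168) and 0.01 in *snf5Δ* (SE 0.14, adjusted p = 0.966), and both were called on log2(TPM + 1) with limma, at 0.63 (adjusted p = 0.0412) and 0.70 (adjusted p = 0.00859), where the median of all genes was 0.46 and 0.73. With cysteine its log2 change was -0.25 (SE 0.14) in *snf2Δ*, -0.30 (SE 0.14) in *snf5Δ* and 0.06 (SE 0.14) in wt, none of them called. The ratio within libraries of the same number was below 1 in all 6 mutant pairs (0.767 to 0.903) and lay between 0.933 and 1.14 in wt.

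YML082W passed the threshold in none of the 11 comparisons. Its libraries ranged over 41.2 to 75.7 CPM in *snf2Δ* YPD+Cys, 51.7 to 78.8 in *snf2Δ* YPD, 51.7 to 62.5 in *snf5Δ* YPD+Cys, 52.5 to 88.7 in *snf5Δ* YPD, 41.3 to 64.3 in wt YPD+Cys and 50.6 to 64.1 in wt YPD. All these ranges overlap. In YPD the log2 change over wt was 0.09 in *snf2Δ* (SE 0.25, edgeR adjusted p = 0.84) and 0.20 in *snf5Δ* (SE 0.25, adjusted p = 0.602). Without the libraries rich in multi-mapping reads they were -0.08, at 1 *snf2Δ* YPD library, and 0.01 (adjusted p = 0.98 by edgeR). Its standard errors were the widest of the 4 genes, and *snf2Δ* replicate 3 (75.7 CPM in YPD+Cys and 78.8 in YPD) and *snf5Δ* YPD replicate 3 (88.7) stood above the other libraries of their groups. In YPD+Cys the log2 change of *snf5Δ* over wt was 0.07 (SE 0.24, adjusted p = 0.89 by edgeR) and 0.79 on log2(TPM + 1), where it was called (adjusted p = 0.0328 by limma) beside a median of all genes of 0.73.

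**Figure D3:**
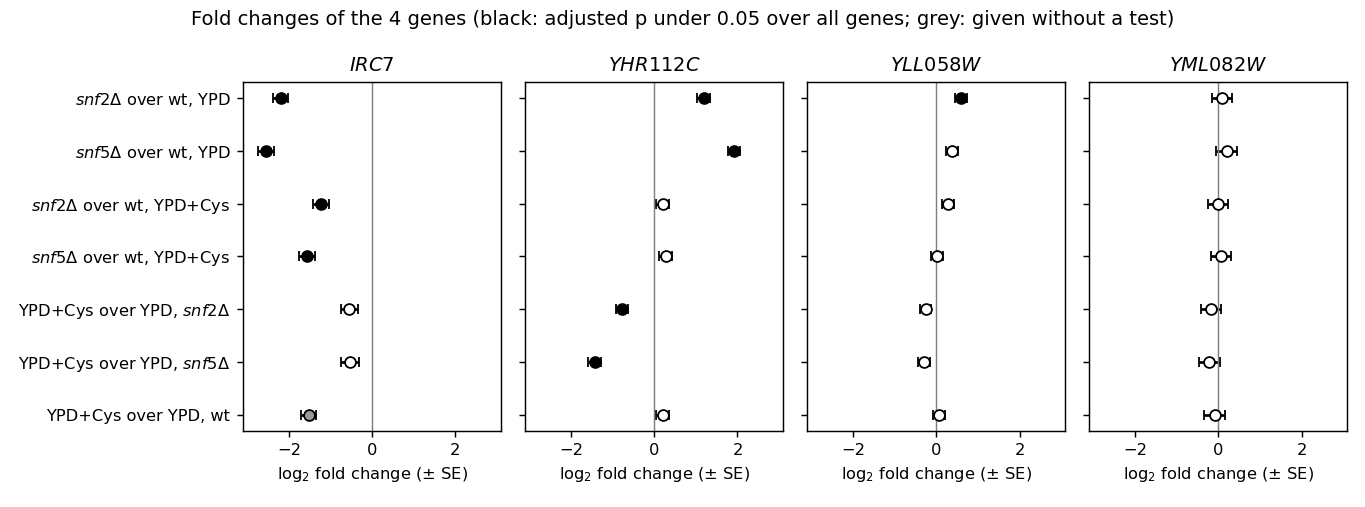
Log2 fold changes (± SE) of the 4 genes in 7 comparisons of strain or medium. Black points have an adjusted p under 0.05 over the 5757 genes, white points do not, and the grey point is the wt cysteine response of *IRC7*, given without a test. *IRC7* lies at -2.20 and -2.56 in YPD where YHR112C lies at 1.19 and 1.92, and all points of YML082W are white.

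Set beside the whole table, 3 of the 4 members were called for *snf2Δ* over wt in YPD, where 19.7% of all genes tested were called, and 2 of 4 for *snf5Δ* over wt in YPD, where the share was 27%. In YPD+Cys 1 of 4 was called in either mutant, *IRC7*, beside 19.3% of all genes for *snf2Δ* and 21% for *snf5Δ*. A count of 1 in 4 is near these shares. For YPD+Cys over YPD 1 member was called in *snf2Δ* and 1 in *snf5Δ*, YHR112C each time, where 0.643% and 0.903% of all genes were called. In wt 0.434% of all genes were called, and *IRC7* is left out there because its change was known when it was chosen. For the difference of the cysteine response 0 members were called in *snf2Δ* minus wt (0.0869% of all genes) and 1 in *snf5Δ* minus wt (0.33%). In *snf2Δ* minus wt YHR112C had an unadjusted p under 0.05 in edgeR, as did 114 of the 5757 genes, and DESeq2 called YHR112C among 14 genes. Between the mutants 1 member was called in YPD (2.99% of all genes) and 0 in YPD+Cys (2.54%), where no member had an unadjusted p under 0.05 and DESeq2 called 0. The replicate block within strain called many more genes of the 5757 for cysteine, 299 in *snf2Δ*, 207 in *snf5Δ* and 358 in wt, and for the response minus that of wt 32 in *snf2Δ* and 84 in *snf5Δ*. The median log2 change of the 4 members was 0.34 for *snf2Δ* and 0.29 for *snf5Δ* over wt in YPD, against 0.02 and -0.01 for all genes.

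The order of the groups by mean CPM differed from gene to gene. For *IRC7* it ran wt YPD, wt YPD+Cys, *snf2Δ* YPD, *snf5Δ* YPD, *snf2Δ* YPD+Cys and *snf5Δ* YPD+Cys, and neighbours from *snf2Δ* YPD downwards overlapped. For YHR112C it ran *snf5Δ* YPD, *snf2Δ* YPD, *snf5Δ* YPD+Cys, *snf2Δ* YPD+Cys, wt YPD+Cys and wt YPD, and neighbours from *snf5Δ* YPD+Cys downwards overlapped. Neighbours overlapped throughout for YLL058W, which was highest in *snf2Δ* YPD, and for YML082W, which was highest in *snf5Δ* YPD.

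Levels of different genes were compared per length, as TPM within a group. In wt YPD, *IRC7* had 27.6 ± 5.16 TPM (SD, n = 3), above 83.3% of the genes tested, while YHR112C had 4.60 ± 0.862, YLL058W 3.97 ± 0.176 and YML082W 7.66 ± 1.46 TPM, above 29.1%, 23.9% and 49.3%. *IRC7* was thus the most abundant of the 4 in wt. In *snf5Δ* YPD the order was turned, with YHR112C at 25.4 ± 6.87 TPM (above 76.9% of the genes) and *IRC7* at 6.52 ± 1.44 TPM (above 25% of them). *CYS3* was above all 4 members in every group, at 120 TPM in *snf5Δ* YPD and 60.4 TPM in wt YPD.

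**Figure D4:**
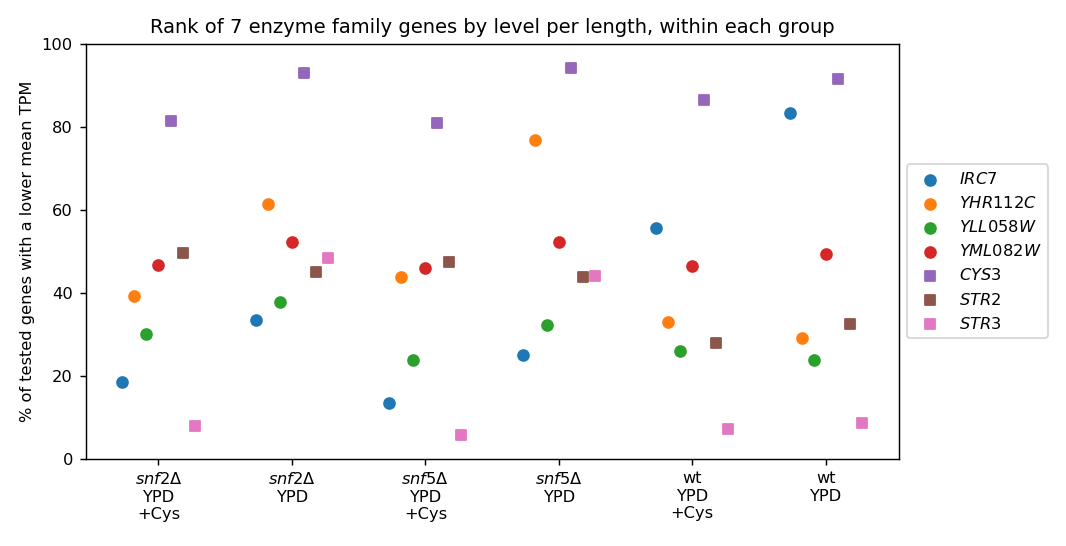
Rank of the 4 genes (circles) and of *CYS3*, *STR2* and *STR3* (squares) among the genes tested, as the percentage of genes with a lower mean TPM in that group. *IRC7* stands above 83.3% of the genes in wt YPD and 25% in *snf5Δ* YPD, and YHR112C above 76.9% in *snf5Δ* YPD and 29.1% in wt YPD.

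Among the other 4 genes of the family *MET17* is deleted, and the other 3 were measured. *STR3*, a cystathionine β-lyase, rose in *snf2Δ* (log2 change 2.06, SE 0.25) and *snf5Δ* (2.03, SE 0.25) over wt in YPD, fell with cysteine in *snf2Δ* (-1.81, SE 0.24) and *snf5Δ* (-2.61, SE 0.26), and its cysteine response in *snf5Δ* minus wt was -2.31 (SE 0.38, edgeR adjusted p = 0.00727). *STR2*, the cystathionine γ-synthase, rose in both mutants, by 0.51 (SE 0.17, adjusted p = 0.0494) in *snf2Δ* and 0.49 (SE 0.17, adjusted p = 0.0451) in *snf5Δ* in YPD and by 0.73 (SE 0.17) and 0.66 (SE 0.17) in YPD+Cys, all called. *CYS3* fell with cysteine in *snf2Δ* (-1.57, SE 0.23) and *snf5Δ* (-2.06, SE 0.23), while its change in wt was -0.83 (SE 0.23, adjusted p = 0.225). Of the 7 measured family genes, *IRC7* was the lone one called lower in a mutant over wt in YPD. Of all 5757 genes, 682 were called lower in *snf2Δ* and 865 in *snf5Δ*, and 1 of 7 is near these shares. In the family 4 were called higher in *snf2Δ* and 3 in *snf5Δ*, beside 454 and 689 of all genes.

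Sulfate assimilation, the route from sulfate to sulfide, holds genes with the directions seen for YHR112C. In YPD 10 of its 10 genes were called higher in *snf2Δ* (median log2 change 1.85) and 10 of 10 in *snf5Δ* (median 2.5). Among all 5757 genes, 454 and 689 were called higher there. With cysteine 7 of 10 were called lower in *snf2Δ* (median -1.52), 9 of 10 in *snf5Δ* (median -2.81) and 0 of 10 in wt (median 0.08). Among all genes, 34, 48 and 13 were called lower in these strains with cysteine. In *snf5Δ* over wt in YPD, where YHR112C had a log2 change of 1.92, *MET3*, ATP sulfurylase, had 3.62 (SE 0.25) and *MET1* had 1.16 (SE 0.19).

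The genes that interconvert homocysteine, cystathionine and cysteine, 13 of 14 of which were tested, were called in both directions between strains and in 1 direction with cysteine. In *snf5Δ* over wt in YPD 5 were called higher and 5 lower, with a median log2 change of -0.07, and in YPD+Cys 2 higher and 7 lower (median -0.67). Among all 5757 genes, 689 were called higher and 865 lower in YPD, and 559 and 652 in YPD+Cys. The 2 of 13 called higher in YPD+Cys are near that share. With cysteine 9 were called lower and 0 higher in *snf2Δ* (median -1.39) and likewise 9 and 0 in *snf5Δ* (median -2.04), and 0 were called in wt (median -0.65). Among all genes, 34 and 48 were called lower in the mutants with cysteine. *CYS4*, cystathionine β-synthase, fell in *snf2Δ* over wt in YPD+Cys by 1.63 on the log2 scale (SE 0.18) and in *snf5Δ* by 1.46 (SE 0.18). In YPD *CYS4* averaged 303 CPM in *snf2Δ*, 415 in *snf5Δ* and 572 in wt, and *SAM1* 229, 198 and 547 CPM. *IRC7* was lower in the mutants in both media, and so was *CYS4* on average. In *snf2Δ* over wt in YPD 4 genes of this list were called higher and 3 lower, beside 454 and 682 of all genes. In YPD+Cys it was 1 higher and 4 lower for *snf2Δ*, beside 444 and 669 of all genes. Of 6 regulators 3 were called higher in *snf5Δ* over wt in YPD, beside 689 of all 5757 genes. They were *MET28* (2.14, SE 0.31), *MET32* (2.10, SE 0.32) and *MET30* (1.25, SE 0.17), which encodes the ubiquitin ligase subunit that holds Met4 inactive. *MET4* had 0.45 (SE 0.19, edgeR adjusted p = 0.0832).

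Genes with the most similar pattern were found as the 5 highest Pearson correlations of log2 CPM over the 18 libraries, among 5118 genes with a mean of at least 10 CPM. The libraries share strain and medium groups, so these values describe likeness and carry no test. For YHR112C they were *MET10* (0.95), a sulfite reductase subunit, *SUL2* (0.95), a sulfate permease, *MET16* (0.92), PAPS reductase, *MNN4* (0.91) and *MET3* (0.90). All but *MNN4* belong to sulfate assimilation. *MET10* averaged 80.0 CPM in *snf2Δ* YPD+Cys and 252 in *snf2Δ* YPD, 69.2 in *snf5Δ* YPD+Cys and 376 in *snf5Δ* YPD, and 71.0 in wt in either medium.

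*IRC7* was most like other genes. They were *PHO84* (0.93), a phosphate transporter, *CHO2* (0.92), which uses S-adenosylmethionine to methylate phosphatidylethanolamine, *FRK1* (0.91), *PHO3* (0.91), an acid phosphatase, and the small nucleolar RNA snR18 (0.91). *CHO2* averaged 51.9 CPM in *snf2Δ* YPD+Cys and 135 in *snf2Δ* YPD, 48.2 in *snf5Δ* YPD+Cys and 136 in *snf5Δ* YPD, and 192 in wt YPD+Cys and 458 in wt YPD. *PHO84* was as low as 0.677 CPM on average in *snf2Δ* YPD+Cys, at only 1 to 7 counts a library. In wt YPD+Cys it averaged 36.3 CPM, from libraries as far apart as 71.1, 32.5 and 5.38 CPM. The correlation of *IRC7* with YHR112C was -0.45.

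YLL058W was nearest to *FMO1* (0.89), a flavin monooxygenase, *AGP3* (0.83), an amino acid permease, *MET28* (0.82), *MNN4* (0.80) and *STR3* (0.80), and correlated with YHR112C at 0.67. YML082W was nearest to *DIP2* (0.93), *NUP1* (0.92), *RSA4* (0.92), *IPI1* (0.91) and *SUA5* (0.91), and no sulfur gene was among them. *DIP2*, *RSA4* and *IPI1* act in the making of ribosomes. Like YML082W, they were highest in replicate 3 within *snf2Δ* YPD, *snf2Δ* YPD+Cys and *snf5Δ* YPD. In *snf2Δ* YPD *DIP2* had 85.4, 85.4 and 163 CPM. The likeness thus includes differences between libraries of 1 group. The YPD libraries among these were rich in multi-mapping reads, and *snf2Δ* YPD+Cys replicate 3, with 14.05%, was not. In *snf2Δ* YPD replicate 2, with 53.5%, YML082W had 51.7 CPM. The cause of the high values was not tested. The correlation of YML082W with *IRC7* was 0.01.

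**Figure D5:**
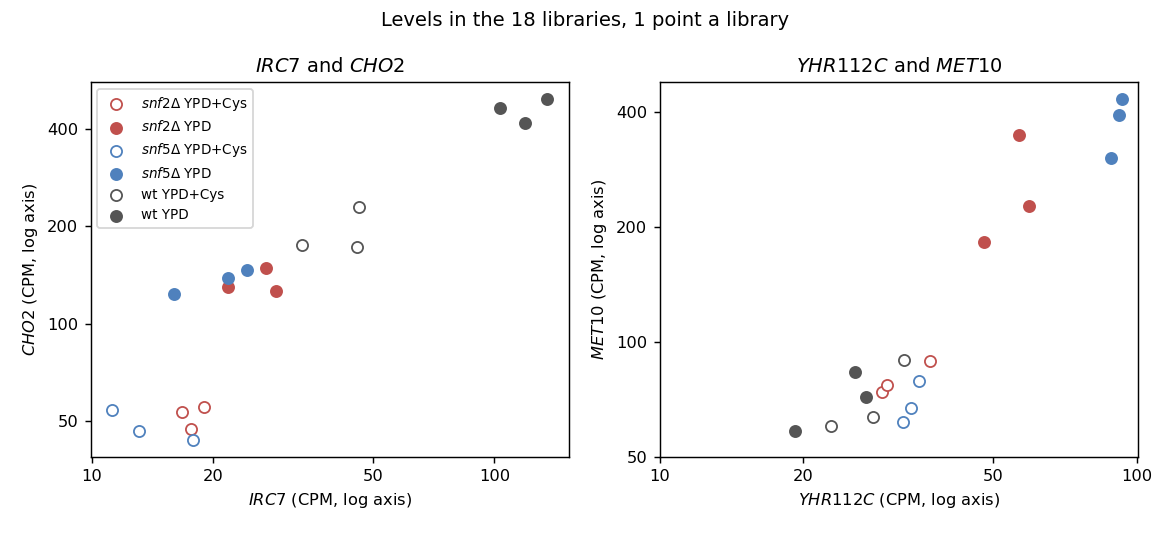
*IRC7* against *CHO2* and YHR112C against *MET10* in CPM (log axes), 1 point a library, open for YPD+Cys and filled for YPD. *CHO2* and *IRC7* are both highest in wt YPD, at means of 458 and 119 CPM, and *MET10* and YHR112C are both highest in *snf5Δ* YPD, at means of 376 and 91.1 CPM.

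The annotated genes beside the members were read as a check on the loci. On either side of *IRC7* the neighbours YFR054C and YFR057W, 4770 and 3834 bases away, had at most 10 counts in a library, too few to follow. *UBA4*, 132 bases from YHR112C, was called in no comparison, and *APE4*, 673 bases from it on the promoter side, was called in 1, at 0.45 (SE 0.15, edgeR adjusted p = 0.0329) in *snf5Δ* over wt in YPD. *GTT2*, a glutathione S-transferase 1729 bases before YLL058W, rose in both mutants and media, by 1.09 and 1.42 on the log2 scale in YPD (*snf2Δ* and *snf5Δ*, SE 0.22 and 0.21) and by 0.88 and 1.09 in YPD+Cys (SE 0.21 and 0.20). *JLP1*, the sulfonate dioxygenase that faces the end of YLL058W, had 2 to 25 counts a library and was not called. *ATP18*, 171 bases past YML082W, was called higher in *snf5Δ* in both media (0.47, SE 0.14 in YPD and 0.68, SE 0.14 in YPD+Cys) and in *snf2Δ* in YPD+Cys (0.42, SE 0.14), while YML082W was not.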

How the data were processed

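RNA was measured in 18 libraries of total RNA depleted of ribosomal RNA. The authors used bcl2fastq 2.18 and STAR 2.7.3a (sacCer3, Ensembl models), and deposited raw counts per gene. The TPM deposited beside them came from RSEM 1.3.0 and are scaled to gene length and to 1 total per library, and its expected counts, also deposited, are not. Whether counting used strand is not given in the sources used here. Lines that name no gene, 14.4% to 78.2% of the table's total per library, were not used. Genes were kept by filterByExpr, scaled by TMM and fitted over 6 groups with edgeR 4.0.16 (R 4.3.3), with Benjamini-Hochberg adjustment and a threshold of 0.05. SE is the fold change over the root of F. The script was tested on simulated data. Alternatives were RLE, library totals, other filters, DESeq2 1.42.0 (its own size factors), expected counts rounded to whole numbers, limma 3.58.1 on log2(TPM + 1) and log2(TPM + 0.1), compared groups alone, replicate blocks, and libraries left out. Same-numbered YPD+Cys and YPD libraries of a strain deviated together across genes (0.247 to 0.802 in 9 of 9 pairs), so number within strain pairs them, as did those of the mutants in YPD (0.107 to 0.567). The members and lists were chosen with earlier results of these data known. Genes named are the members, their family, the lists described, adjacent genes and the 5 most alike. Sequences and proteins were read from RefSeq's R64 genome, in which 4 of 4 members had the deposited coding length.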

Additional observations from a re-analysis of the deposited data

Results flagged for a closer look

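The response of YHR112C to cysteine differed between strains by a test of the difference itself. In *snf5Δ* minus wt it was -1.64 on the log2 scale (SE 0.22, edgeR adjusted p = 0.000629), and -1.65 with the replicate block within strain (SE 0.15, adjusted p = 3.97e-07), with 3 of 3 *snf5Δ* pairs below 1 and 3 of 3 wt pairs above. For *snf2Δ* minus wt the block gave -0.99 (SE 0.15, adjusted p = 0.0011 by edgeR), with 3 of 3 *snf2Δ* pairs below 1. Without the block it was -0.98 and not called (edgeR adjusted p = 0.195). On log2(TPM + 1) the *snf5Δ* minus wt difference was -1.17 and not called (limma adjusted p = 0.832). For *IRC7* the block gave 0.99 in *snf2Δ* minus wt (SE 0.20) and 0.96 in *snf5Δ* minus wt (SE 0.21). Both subtract the wt change known when the gene was chosen, so they are given with no test and are no separate evidence. No explanation of these differences was tested.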

How the results depend on the processing

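Over 31 alternatives the fold changes of the 4 members were recomputed 1340 times, and 1292 kept their direction and side of the threshold, 21 lost a call and 27 gained one. No called change reversed. Signs turned 62 times among uncalled changes, 53 of YML082W and 9 of YLL058W, at main log2 changes of at most 0.27. The calls of *IRC7* over wt in both media held in all alternatives. The number of members called moved by more than 1.5 times as follows. For *snf5Δ* over wt in YPD+Cys, 1 member became 2 on library totals and 4 with each of the 3 limma fits on TPM, and for *snf2Δ* over wt in YPD+Cys it became 2 with those 3 fits. In the same settings 1478 of 5757 genes were called on library totals for *snf5Δ* over wt in YPD+Cys, and with limma on log2(TPM + 1) 3557 of 5722 in *snf5Δ* and 932 in *snf2Δ*. The limma fits gave 0 in place of 1 for cysteine in *snf2Δ*, cysteine in *snf5Δ*, the *snf5Δ* minus wt response and *snf5Δ* over *snf2Δ* in YPD. For cysteine in *snf2Δ*, 0 were called with expected counts, with the compared groups alone and without the 3 libraries rich in multi-mapping reads, which also gave 0 for *snf5Δ* over *snf2Δ* in YPD (1 *snf2Δ* YPD library then remains, and its spread is that of other groups). For the *snf2Δ* minus wt response 1 was called by DESeq2 and 2 with the replicate block within strain, in place of 0. For *snf5Δ* minus wt 2 were called in place of 1 with that block. *IRC7* was among the 2 each time, and nothing is read from that, because its wt change was known. Replicate number as a block across strains changed the call of YLL058W in *snf5Δ* over wt in YPD, and no other call of a member. Leaving out 1 library gave 2 to 3 members for *snf5Δ* over wt in YPD, 0 to 1 for cysteine in *snf2Δ* and for *snf5Δ* over *snf2Δ* in YPD, and the main number otherwise. TPM shift all genes, so that the median log2 change reached 0.73 for *snf5Δ* over wt in YPD+Cys, and library totals shift them by 0.18 to 0.34 in the mutants over wt. Whole-table calls ran from 287 with limma on log2(TPM + 1) to 1561 on library totals for *snf2Δ* over wt in YPD, against 1136. The cause of these differences was not tested. Members had as few as 38 counts in a library, and 3 libraries a group set the precision.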
